A study of Mus musculus with 1307 samples.

Results

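The cells described here were Rgs5-high smooth muscle cells of the mouse heart, 101 of 1307 single cells. They were chosen by their own counts, in CPM (counts per 1000000 counts of the cell). A member had at least 1000 CPM of Myh11, the smooth muscle myosin heavy chain, and at least 1000 CPM of Rgs5, a regulator of G-protein signalling. It also had less than 500 CPM of Vtn (vitronectin) and less than 2500 CPM summed over Kcnj8 and Abcc9, the pore and the sulphonylurea receptor of the vascular ATP-sensitive potassium (KATP) channel, both pericyte markers. The values of these 5 genes therefore made the group and are given as description only. So are those of Pln, Casq2, Olfr78 and Nrip2, by which the cells were described when they were proposed.

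Hearts of adult mice, 8 to 30 weeks old, were dissociated with enzymes, and single cells were sorted into 384-well plates for Smart-Seq2, which sequences full-length cDNA without molecular identifiers. Mice of strain ACTA2GFP:CSPG4dsRED, called double-reporter here, carry reporters named for the smooth muscle actin gene Acta2 and for Cspg4, which encodes the NG2 proteoglycan of mural cells. They gave 368, 245 and 336 cells of mice 1, 2 and 3. Mice of the inbred strain C57BL/6 gave 347, 4 and 1 cells of 3 mice, and 1 CSPG4dsRED mouse and 1 ACTA2GFP mouse gave 3 cells each. Double-reporter mice 1 and 2 are labelled male and mouse 3 is labelled female, although the design text calls the animals male. No perturbation was applied to any group. Which cells the sort gate took is not stated, and each large set of cells came from 1 mouse on 1 plate, so mouse and plate cannot be told apart.

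Smooth muscle cells contract when calcium released from the sarcoplasmic reticulum or entering from outside activates myosin light chain kinase, and they relax when cyclic nucleotides and potassium channels oppose this. Those of small resistance vessels set flow through tissue, whereas those of larger arteries also build an elastic wall of elastin, fibulins and collagens. Rgs5 shortens signalling of receptors coupled to Gq and Gi proteins and is a common marker of pericytes and of some arterial smooth muscle. Notch3, a receptor on mural cells, is activated by ligands on neighbouring endothelial and mural cells and maintains arterial smooth muscle.

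The 101 Rgs5-high cells were 50, 32 and 17 cells of double-reporter mice 1, 2 and 3 and 2 cells of C57BL/6 mouse 1. The other 4 mice had none among 1 to 4 cells each. Members made up 13.6% of the cells of mouse 1 (exact binomial 95% interval 10.3 to 17.5%), 13.1% of mouse 2 (9.11 to 17.9%), 5.06% of mouse 3 (2.97 to 7.98%) and 0.576% of C57BL/6 mouse 1 (0.0699 to 2.07%). Among cells with at least 1000 CPM of Myh11 their share was 33.6%, 38.1% and 85% in the double-reporter mice. These shares describe the plates, since the sort gate is unknown, and the intervals cover counting error only. The cells set beside them were 115 Rgs5-low cells (Myh11 at least 1000 CPM, Rgs5 under 1000 CPM; 74 and 37 in double-reporter mice 1 and 2, 1 in mouse 3), 43 Vtn-positive Myh11 cells (over both the Myh11 and Rgs5 gates with Vtn at least 500 CPM; 25 and 15 in mice 1 and 2), and 85 pericytes with high KATP channel values (Myh11 under 1000 CPM, Rgs5 at least 1000 CPM, Kcnj8 and Abcc9 together at least 2500 CPM; 58, 14 and 8 in mice 1, 2 and 3).

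Summed over the cells of a mouse, Rgs5 stood at 4903, 7007 and 6555 CPM in Rgs5-high cells, against 130.1 and 149 CPM in Rgs5-low cells. Throughout, the values of Rgs5-high cells and pericytes are those of double-reporter mice 1, 2 and 3 in that order, and the values of Rgs5-low and Vtn-positive cells are those of mice 1 and 2. In single cells the lowest, median and highest Rgs5 values of members were 1026, 5002 and 13365 CPM in mouse 1, 1565, 7079.9 and 16928 CPM in mouse 2 and 1675, 5134 and 15796 CPM in mouse 3. Few cells lay near the threshold. Of the 216 Rgs5-high and Rgs5-low cells, 84 were under 100 CPM, 31 between 100 and 1000 CPM, 9 between 1000 and 2000 CPM, 75 between 2000 and 10000 CPM and 17 above that. The nearest members had 1026, 1185 and 1380 CPM, and the nearest cells outside had 856, 778 and 731 CPM. For Vtn the nearest members had 499, 494 and 493 CPM and the nearest cells outside 538, 593 and 594 CPM. Within 2-fold below and above the threshold lay 11 and 9 cells for Rgs5, 11 and 12 for Vtn and 10 and 10 for Myh11. For Myh11 the nearest values were 1013, 1354 and 1363 CPM inside and 915, 888 and 841.6 CPM outside. Summed Myh11 was 3914, 4444 and 3778 CPM in Rgs5-high cells, against 3184 and 3791 CPM in Rgs5-low cells.

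The smooth muscle part of the name was set beside marker genes, some of which are gate genes. All 8 smooth muscle markers (Myh11, Acta2, Tagln, Cnn1, Smtn, Lmod1, Mylk and Myl9) were above 10 CPM in members, and their sum was 20288 to 25932 CPM over the mice, against 19439 to 28145 CPM in Rgs5-low cells and 2684 to 4199 CPM in pericytes. The 11 pericyte markers summed to 3315 to 4802 CPM in members, against 1403 to 1824 CPM in Rgs5-low cells and 21998 to 27781 CPM in pericytes. Myh11 in the first sum and Kcnj8, Abcc9 and Vtn in the second are gate genes. The contrasts with pericytes were therefore partly set by the gates, and sums without these genes are not given. No value in the table bears on the vessel the cells came from, so the word coronary rests on the organ alone. Fibroblast markers (10 genes, 9 of them above 10 CPM) summed to 2561 to 3715 CPM in members and 6467 to 7791 CPM in Rgs5-low cells. Endothelial markers (9 genes, Cdh5 under 1 CPM in members) summed to 135 to 160.0 CPM and 74.5 to 159.5 CPM in the same order of classes, and cardiomyocyte markers (16 genes) to 336 to 1113 CPM and 1129.6 to 1144 CPM. Schwann cell, macrophage and mesothelial markers summed to at most 17.7, 39.3 and 3.63 CPM in members. Single cells varied more than these sums show. Over 500 CPM of endothelial markers was found in 14 of 101 members (highest 5061 CPM) and 12 of 115 Rgs5-low cells. For cardiomyocyte markers it was 42 of 101 members (highest 19187 CPM) and 74 of 115 Rgs5-low cells. Members were shallower than Rgs5-low cells, with a median of 213683 counts and 3977 genes per cell, against 310412 counts and 4838 genes, and the part of depth in the differences below was not tested. From sums over cells alone, fewer expressing cells and less RNA per cell cannot be told apart. Values by cell are given beside the sums of some genes only.

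Pln (phospholamban, the inhibitor of the reticulum calcium pump), Casq2 (calsequestrin 2, which stores calcium in the reticulum), Olfr78 (an olfactory-type receptor) and Nrip2 (a nuclear receptor interacting protein) named the cells, and their values are a description without a test. Casq2 was 1167, 1611 and 1599.9 CPM in Rgs5-high cells, against 87.8 and 229 CPM in Rgs5-low cells and 879, 1270.4 and 1593 CPM in pericytes. The sums of Casq2 separated members from Rgs5-low cells in both mice but not from pericytes, whose range overlapped theirs. Olfr78 was 909, 1011 and 1733 CPM in Rgs5-high cells, against 148 and 323 CPM in Rgs5-low cells and 5.43, 2.24 and 0.804 CPM in pericytes. Nrip2 was 1118, 1546 and 1805 CPM in Rgs5-high cells, against 240.3 and 451 CPM in Rgs5-low cells and 16.1, 14.5 and 4.02 CPM in pericytes. Both of these were nearly absent from pericytes. Pln was 943, 1007 and 641 CPM in Rgs5-high cells, against 344 and 560.3 CPM in Rgs5-low cells and 75.4, 91.1 and 0.804 CPM in pericytes, and its Rgs5-low values came closest to those of members. Vtn-positive Myh11 cells were nearer to members for Casq2 and Olfr78 than for Nrip2 and Pln. The log2 ratios of members to them in mice 1 and 2 were 0.77 and 1.29 for Casq2 and 1.45 and 0.97 for Olfr78. For Nrip2 they were 2.28 and 1.57, and for Pln 2.44 and 2.71.

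By cell, the lowest, median and highest Nrip2 values of members were 0, 961 and 3199 CPM in mouse 1 and 0, 1554 and 3249 CPM in mouse 2, against 0, 3.74 and 2441 CPM and 0, 141 and 3295 CPM in Rgs5-low cells of those mice. All 4 named markers were at or above 100 CPM together in 26 of 50, 21 of 32 and 8 of 17 members of mice 1, 2 and 3 and in 1 of 2 members of C57BL/6 mouse 1. The same held for 11 of 74 and 6 of 37 Rgs5-low cells of mice 1 and 2. Among Vtn-positive Myh11 cells of these mice it held for 1 of 25 and 4 of 15. Exactly 3 of the 4 markers reached that level in 5 and 2 of those cells, and in 13 and 9 members. None of the 4 reached 100 CPM in 2, 1 and 1 members, against 47 and 13 Rgs5-low and 9 and 8 Vtn-positive cells of mice 1 and 2. The clouds of single cells overlap for each of the 4 genes. Subsets of Rgs5-low and of Vtn-positive cells carried them at the levels of members, and some members had less than 100 CPM of each. Pln reached 100 CPM in 36 of 50, 26 of 32 and 9 of 17 members, a lower share in each mouse than for Casq2, Olfr78 or Nrip2.

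**Figure D1:**
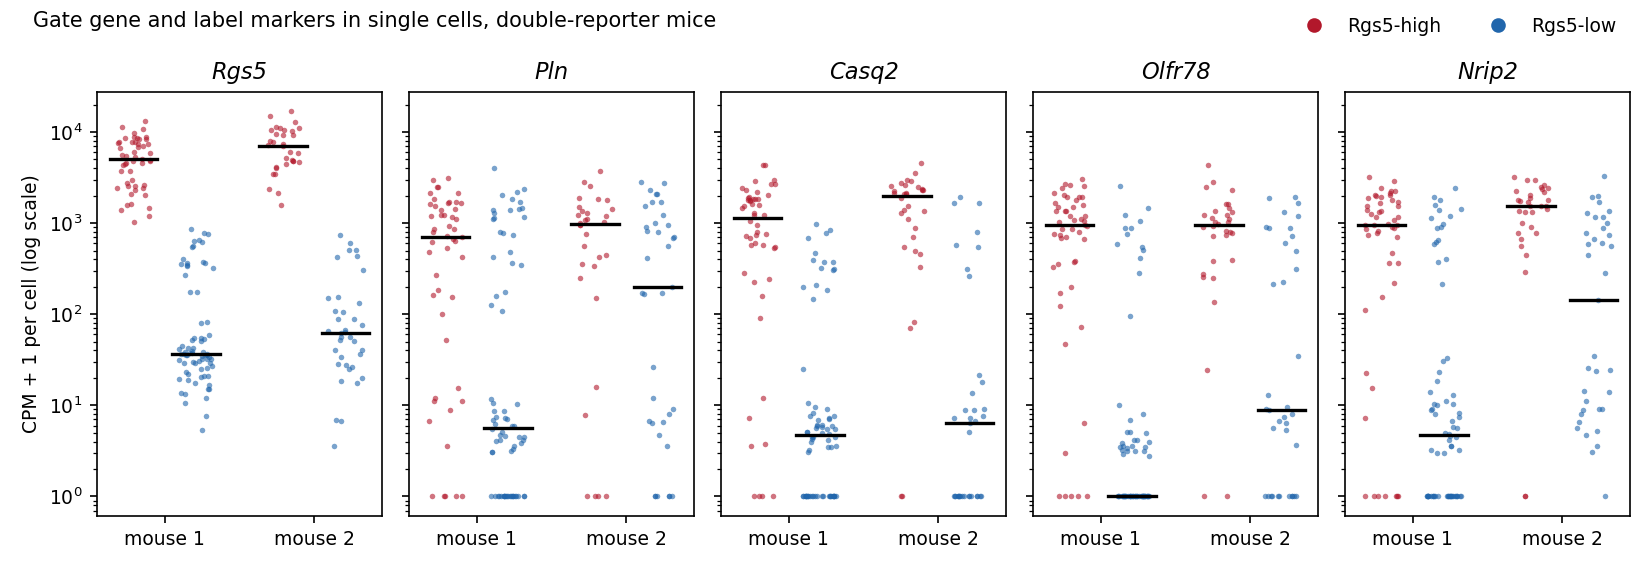
Rgs5 and the 4 label markers in single Rgs5-high (red) and Rgs5-low (blue) cells of double-reporter mice 1 and 2, as CPM + 1 on a log axis, with 1 point per cell and a black bar at the median. Rgs5 is split by the gate itself, while Pln, Casq2, Olfr78 and Nrip2 each show Rgs5-low cells reaching the values of members.

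To ask how members differed from smooth muscle with little Rgs5, the raw counts of each class were added up within a mouse and tested with edgeR over 13754 genes outside the gate, with the mouse as a block. Only double-reporter mice 1 and 2 had at least 4 cells in both classes, so the test had 1 residual degree of freedom. At an adjusted p under 0.05 it called 0 genes (0% of those tested), with a lowest adjusted p of 0.0726. At an unadjusted p under 0.05, 1655 genes differed, 609 higher and 1046 lower in Rgs5-high cells. DESeq2 on the same sums called 1112 genes (396 higher, 716 lower) and limma on means of cells called 124 (43 higher, 81 lower). Because the main test called none, the genes of this comparison are given by their values, and by whether they differed at least 2-fold in both mice on CPM + 1. That held for 771 genes higher (5.61% of genes tested) and 1429 genes lower (10.4%). The median log2 change over all genes tested was -0.09.

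The main contractile genes had values in members that overlapped those of Rgs5-low cells. Acta2 was 5328, 8009.7 and 7345 CPM in Rgs5-high cells, against 4967 and 8225 CPM in Rgs5-low cells, with a log2 change of 0.03 ± 0.13 (SE, 2 mice, edgeR adjusted p = 0.975). Myl9, the regulatory light chain, was 3557, 5176 and 4702 CPM in Rgs5-high cells, against 3069 and 5069 CPM in Rgs5-low cells, a log2 change of 0.12 ± 0.14. Tagln, which encodes the actin-binding protein transgelin, was 2125, 2528 and 2394 CPM in Rgs5-high cells, against 2227 and 3377 CPM in Rgs5-low cells. None of the 25 contractile genes tested was 2-fold higher in both mice, 2 (Actg2 and Myh10) were 2-fold lower, and the list's median log2 change was -0.17. The differences within the list lay in a few genes. Actg2, the gamma actin of visceral smooth muscle, was 323, 448 and 233 CPM in Rgs5-high cells, against 836 and 1130.0 CPM in Rgs5-low cells, and was 100 CPM or more in 11 of 50 and 9 of 32 members, against 54 of 74 and 30 of 37 Rgs5-low cells. Cnn1, encoding calponin, an inhibitor of myosin ATPase, was 841, 879 and 469 CPM in Rgs5-high cells, against 1556 and 2004 CPM in Rgs5-low cells. Smtn (smoothelin) was 962, 937 and 809.9 CPM in Rgs5-high cells, against 1673 and 2413 CPM in Rgs5-low cells. In all 3 genes the members' values lay below both Rgs5-low values.

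**Figure D2:**
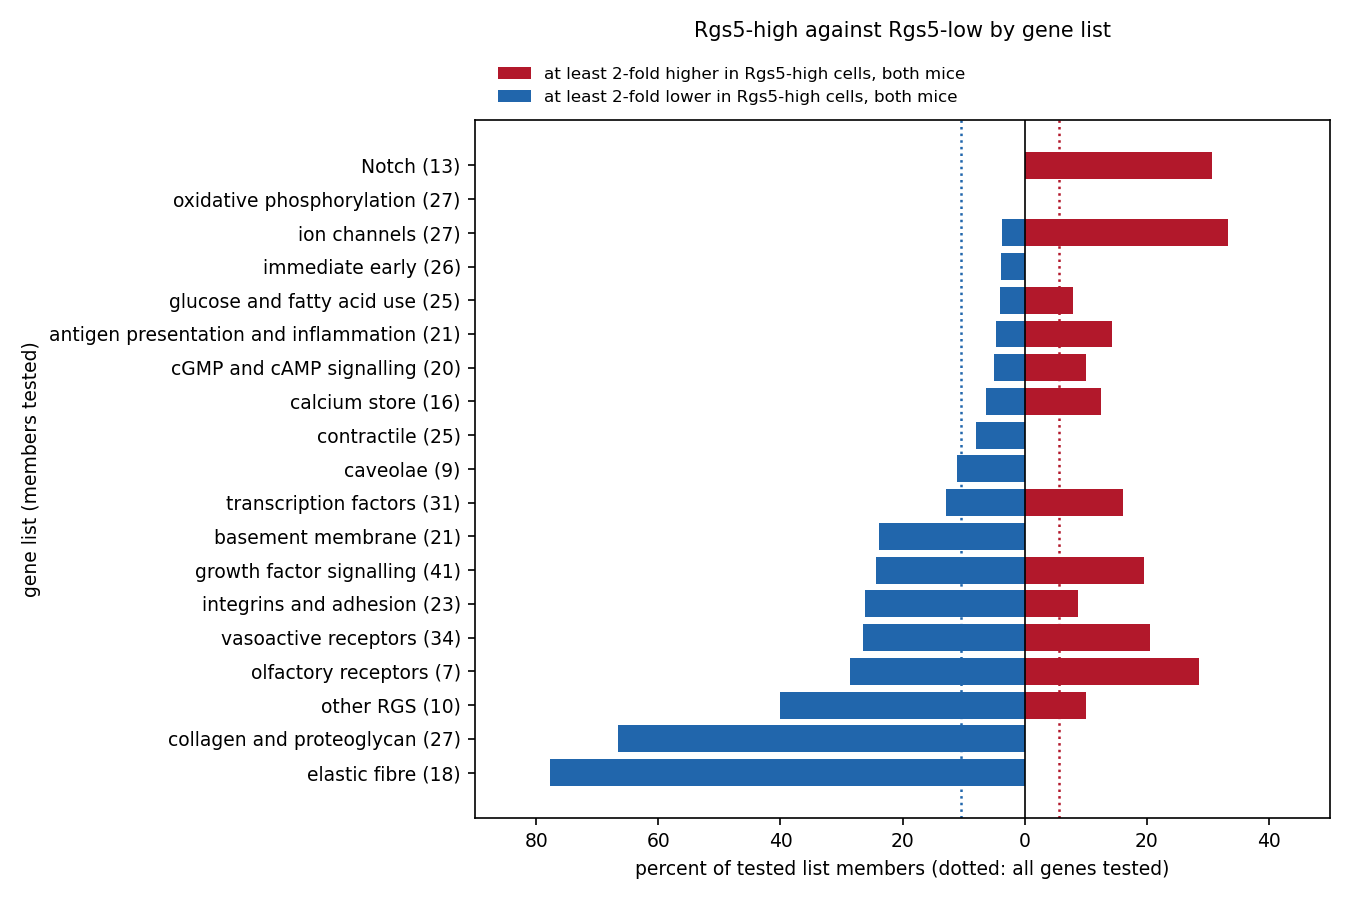
Share of the tested members of each gene list that was at least 2-fold higher (red, right) or lower (blue, left) in Rgs5-high than in Rgs5-low cells of both mice; the number tested stands in brackets and dotted lines mark the shares over all genes, 5.61% and 10.4%. The elastic fibre and collagen lists reach far beyond the line on the lower side, and the ion channel and Notch lists on the higher side.

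Among the calcium store genes, those of the pumps had higher values in members of both mice than in Rgs5-low cells. Atp2a3, which encodes SERCA3, a pump that returns calcium to the reticulum, was 391, 514 and 531 CPM in Rgs5-high cells, against 47.3 and 101 CPM in Rgs5-low cells, with a log2 change of 2.70 ± 0.30 (adjusted p = 0.113, edgeR). Atp2a2, which encodes SERCA2, the pump that Pln inhibits, was 882, 947 and 653 CPM in Rgs5-high cells, against 441 and 489 CPM in Rgs5-low cells. Hrc, a calcium-binding protein of the reticulum, was 57.6, 90.7 and 38.1 CPM in Rgs5-high cells, against 2.66 and 22.3 CPM in Rgs5-low cells. Of 16 genes tested, 2 (Atp2a3 and Hrc) were 2-fold higher in both mice and 1 (Casq1) was 2-fold lower, and the median log2 change was 0.02. Ryr2, the release channel that partners Casq2 in heart muscle, was 6.32, 9.68 and 0.778 CPM in Rgs5-high cells, against 10.6 and 6.93 CPM in Rgs5-low cells, which is low in both classes.

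More ion channel genes stood higher than lower in members. Of 27 tested, 9 were at least 2-fold higher in both mice (among them Cacna1g, Kcna5, Kcnj2, Kcnj12, Trpc6, Ano1 and Scn3a) and 1 was 2-fold lower (Piezo1, a stretch-activated channel), with a list median log2 change of 1.04. Kcna5, the voltage-gated potassium channel Kv1.5, was 203.7, 396 and 242 CPM in Rgs5-high cells, against 36.7 and 169.9 CPM in Rgs5-low cells and 80.7, 174 and 12.9 CPM in pericytes. Ano1, a calcium-activated chloride channel, was 556, 530.0 and 803 CPM in Rgs5-high cells, against 160.1 and 158 CPM in Rgs5-low cells and 618, 572 and 575 CPM in pericytes. Ano1 thus was as high in pericytes as in members, while Kcna5 ran lower in pericytes of each mouse. Kcnj2, an inward rectifier potassium channel, was 27.6, 29.7 and 6.22 CPM in Rgs5-high cells, against 0.0375 and 1.80 CPM in Rgs5-low cells, so that it was nearly undetected in Rgs5-low cells. Kcnab1, a subunit of voltage-gated potassium channels, was 561, 505 and 450.2 CPM in Rgs5-high cells, against 203.22 and 357 CPM in Rgs5-low cells and 9.62, 2.24 and 2.41 CPM in pericytes. Kcnmb1, the beta subunit of the large-conductance calcium-activated potassium channel, had lower values in members than in Rgs5-low cells, at 267, 255 and 224 CPM in Rgs5-high cells, against 390.0 and 513 CPM in Rgs5-low cells.

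Among receptors for vasoactive signals the members differed in both directions, with 7 of 34 tested genes 2-fold higher in both mice (Ednra, Ednrb, Adra2b, Adora2b, Ptgir, S1pr3 and Pth1r) and 9 lower (Adra1b, Adra1d, Adora1, P2ry6, Ptger3, Tbxa2r, Htr1b, S1pr2 and Lpar4). S1pr3, a receptor for sphingosine 1-phosphate, was 1035, 1426 and 703 CPM in Rgs5-high cells, against 209 and 552 CPM in Rgs5-low cells and 1402, 1548 and 998 CPM in pericytes. Ednra, the endothelin receptor that drives contraction, was 735, 522 and 886 CPM in Rgs5-high cells, against 210.2 and 255 CPM in Rgs5-low cells and 1056, 1273 and 2199 CPM in pericytes. For both genes pericytes carried as much as members or more. Tbxa2r, the thromboxane receptor, was 64.5, 0.346 and 23.3 CPM in Rgs5-high cells, against 141 and 161 CPM in Rgs5-low cells, and the members' values spread widely between mice. Gpr20, an orphan receptor outside the fixed lists, was 572, 584 and 680.4 CPM in Rgs5-high cells, against 95.7 and 226 CPM in Rgs5-low cells and 21.04, 30.7 and 0.804 CPM in pericytes. In contrast to S1pr3 and Ednra, Gpr20 was low in pericytes.

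Other genes of the RGS family did not follow Rgs5 as a group: of 10 tested, Rgs4 was 2-fold higher in both mice, and Rgs2, Rgs3, Rgs7 and Rgs17 were 2-fold lower. Rgs4 was 1874, 2579 and 1648 CPM in Rgs5-high cells, against 459 and 1045 CPM in Rgs5-low cells and 1787, 1292 and 1347 CPM in pericytes, a log2 change against Rgs5-low cells of 1.67 ± 0.25 (adjusted p = 0.149, edgeR). Rgs4 (chr1:169741477-169747642, GRCm38, minus strand) lies next to Rgs5 (chr1:169655501-169695813, plus strand), with a gap of 45663 bases and 0 annotated genes between them in GENCODE M21. Rgs2, the family member best known in vascular relaxation, was 1.54, 27.7 and 1.94 CPM in Rgs5-high cells, against 62.6 and 99.7 CPM in Rgs5-low cells. Of the nitric oxide and cyclic nucleotide genes, the soluble guanylate cyclase subunit Gucy1b1 was 744, 1444 and 812 CPM in Rgs5-high cells, against 275 and 493 CPM in Rgs5-low cells, and 2 of 20 tested genes (Gucy1b1 and Gucy1a2) were 2-fold higher in both mice.

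Notch3 stood about as high in members as in pericytes, and low in Rgs5-low cells. It was 919, 1115 and 1323 CPM in Rgs5-high cells, against 188 and 234 CPM in Rgs5-low cells and 1101, 1394 and 1051 CPM in pericytes, a log2 change against Rgs5-low cells of 2.27 ± 0.18 (adjusted p = 0.0838, edgeR). The sums of members and Rgs5-low cells did not overlap. By cell, 39 of 50 and 29 of 32 members had 100 CPM or more, against 28 of 74 and 16 of 37 Rgs5-low cells. Nrarp, a Notch target that restrains the pathway, was 244, 186 and 318 CPM in Rgs5-high cells, against 33.4 and 26.4 CPM in Rgs5-low cells and 74.0, 95.01 and 71.5 CPM in pericytes. Its reads cannot be told apart here from those of Gm38287, an antisense gene that covers 2559 bases of the same locus. Of 13 Notch genes tested, 4 (Notch1, Notch3, Hey1 and Nrarp) were 2-fold higher in both mice and 0 lower, with a median log2 change of 0.81. Not every target followed. Heyl, a transcription factor induced by Notch, was 501, 754 and 668 CPM in Rgs5-high cells, against 962 and 1054 CPM in Rgs5-low cells and 1500.1, 1960.1 and 1399.6 CPM in pericytes, so its values were lower in members than in both other classes.

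Ephx3, Pde4c and Higd1b, chosen after their values were seen, also had low values in Rgs5-low cells and high values in members and pericytes. Ephx3, an epoxide hydrolase gene that lies 16917 bases from Notch3 on chromosome 17, was 521, 672 and 999.6 CPM in Rgs5-high cells, against 41.5 and 31.8 CPM in Rgs5-low cells and 277, 463 and 496 CPM in pericytes, with a log2 change of 4.02 ± 0.29 (adjusted p = 0.0742, edgeR). Pde4c, a cyclic AMP phosphodiesterase, was 218, 172 and 353 CPM in Rgs5-high cells, against 1.58 and 1.80 CPM in Rgs5-low cells and 250.5, 158 and 162 CPM in pericytes. Its log2 change of 6.87 ± 0.44 (adjusted p = 0.0726) was among the largest. Higd1b, a gene used here as a pericyte marker, was 358, 565 and 561 CPM in Rgs5-high cells, against 31.0 and 58.2 CPM in Rgs5-low cells and 662, 556 and 912 CPM in pericytes. Tmem100, a membrane protein gene, was 80.5, 159.9 and 70.8 CPM in Rgs5-high cells, against 0.413 and 0.128 CPM in Rgs5-low cells and 0.224, 63.2 and 2.41 CPM in pericytes, so unlike these genes it was not high in pericytes of mice 1 and 3. Ephx3, Pde4c, Higd1b and Tmem100 are 4 of the 31 (9 higher, 22 lower) called by DESeq2, by limma on means of cells and by edgeR on all 5 sums together. The edgeR test fixed for this comparison called none of them. The pericyte genes Steap4 (221, 271 and 422 CPM in Rgs5-high cells, against 19.2 and 1.28 CPM in Rgs5-low cells and 3017, 4143 and 3281 CPM in pericytes) and Ndufa4l2 (701, 745 and 1073 CPM in Rgs5-high cells, against 150.4 and 203.04 CPM in Rgs5-low cells and 1203, 1441 and 1649 CPM in pericytes) took values between the other classes. Colec11, which marks pericytes and Vtn-positive cells here, was 47.2, 31.5 and 48.2 CPM in Rgs5-high cells, against 80.5 and 20.0 CPM in Rgs5-low cells and 1748, 1438 and 1929 CPM in pericytes.

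**Figure D3:**
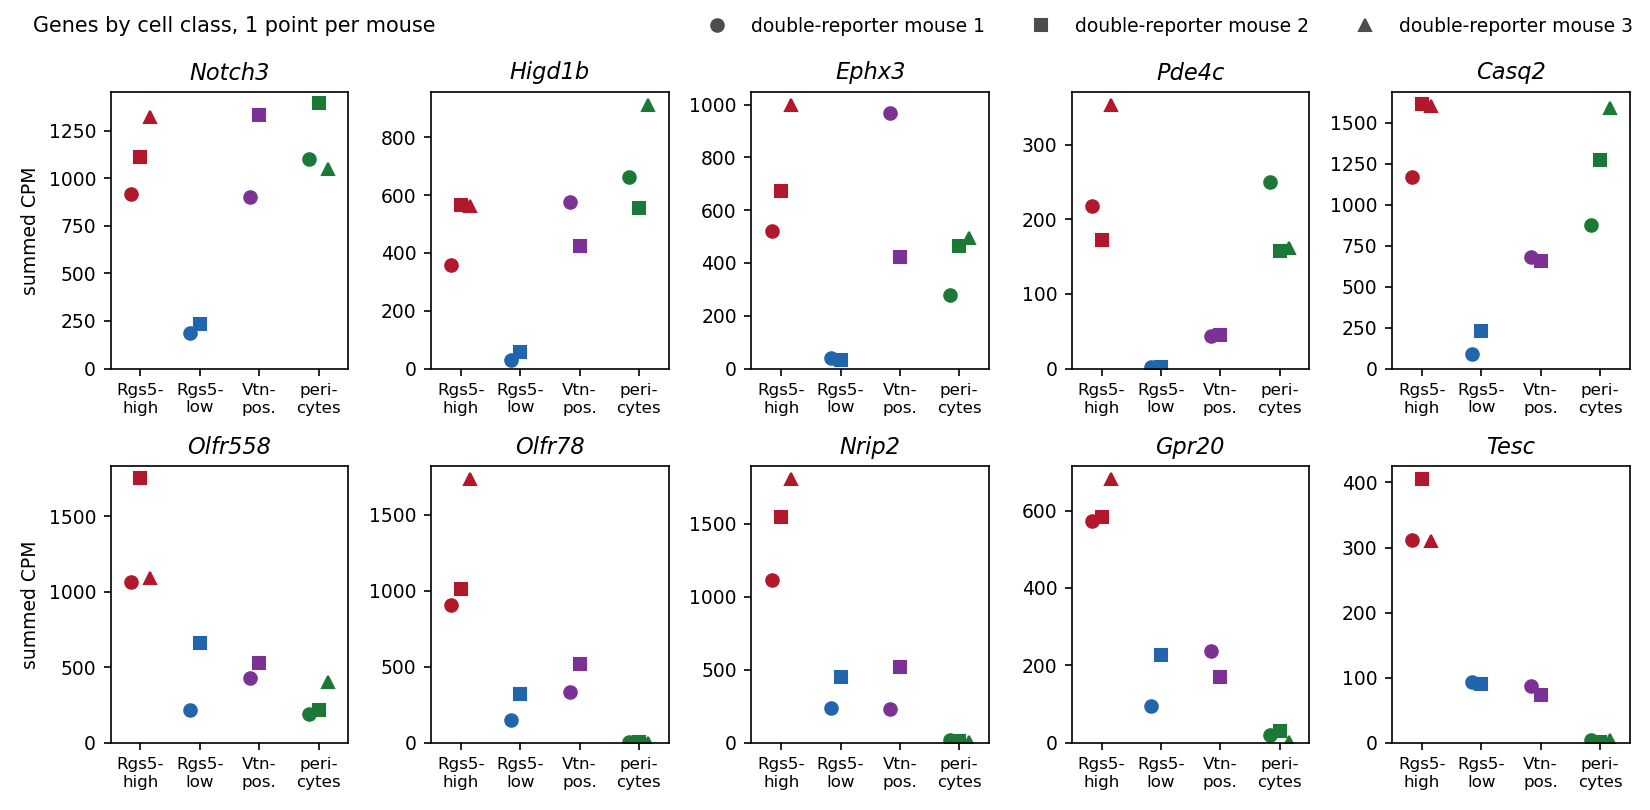
Summed CPM of 10 genes in Rgs5-high cells, Rgs5-low cells, Vtn-positive Myh11 cells and pericytes, with 1 point per double-reporter mouse. In the upper row pericytes reach values near those of Rgs5-high cells, and in the lower row they fall below Rgs5-low cells or, for Olfr558, to about their level.

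Of the gene lists other than cell type markers, 2 matrix lists had the lowest medians against Rgs5-low cells, with lower values in members. Of 18 elastic fibre genes tested, 14 were at least 2-fold lower in both mice and 0 higher, with a median log2 change of -2.34. Eln, which encodes elastin, was 75.8, 92.8 and 5.44 CPM in Rgs5-high cells, against 759 and 906 CPM in Rgs5-low cells, a log2 change of -3.30 ± 0.20 (adjusted p = 0.0726, edgeR). It reached 100 CPM in 4 of 50, 5 of 32 and 0 of 17 members, against 53 of 74 and 25 of 37 Rgs5-low cells. Fbln5 (fibulin 5, which assembles elastic fibres) was 129.8, 118 and 147 CPM in Rgs5-high cells, against 1397 and 1650.1 CPM in Rgs5-low cells. Mfap4, a microfibril-associated glycoprotein gene, was 105, 88.5 and 63.4 CPM in Rgs5-high cells, against 1259 and 1479 CPM in Rgs5-low cells. Pericytes were low as well, with 16.3, 7.27 and 4.02 CPM of Eln and 9.46, 14.5 and 19.3 CPM of Fbln5. Of 27 collagen and proteoglycan genes, 18 were 2-fold lower in both mice and 0 higher, with a median log2 change of -2.18. Col1a1 was 77.3, 46.2 and 91.0 CPM in Rgs5-high cells, against 904 and 938 CPM in Rgs5-low cells. Col3a1 was 131.8, 109 and 103 CPM in Rgs5-high cells, against 1359 and 1478 CPM in Rgs5-low cells and 1092, 2162 and 379 CPM in pericytes. Bgn, encoding the proteoglycan biglycan, was 1114, 1585 and 1424 CPM in Rgs5-high cells, against 3364 and 5337 CPM in Rgs5-low cells. Of 21 basement membrane genes, 5 were lower (Lama4, Lamc3, Hspg2, Npnt and Col18a1) and 0 higher. Npnt (nephronectin, an integrin ligand) was 24.5, 13.8 and 43.2 CPM in Rgs5-high cells, against 471 and 392 CPM in Rgs5-low cells.

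**Figure D4:**
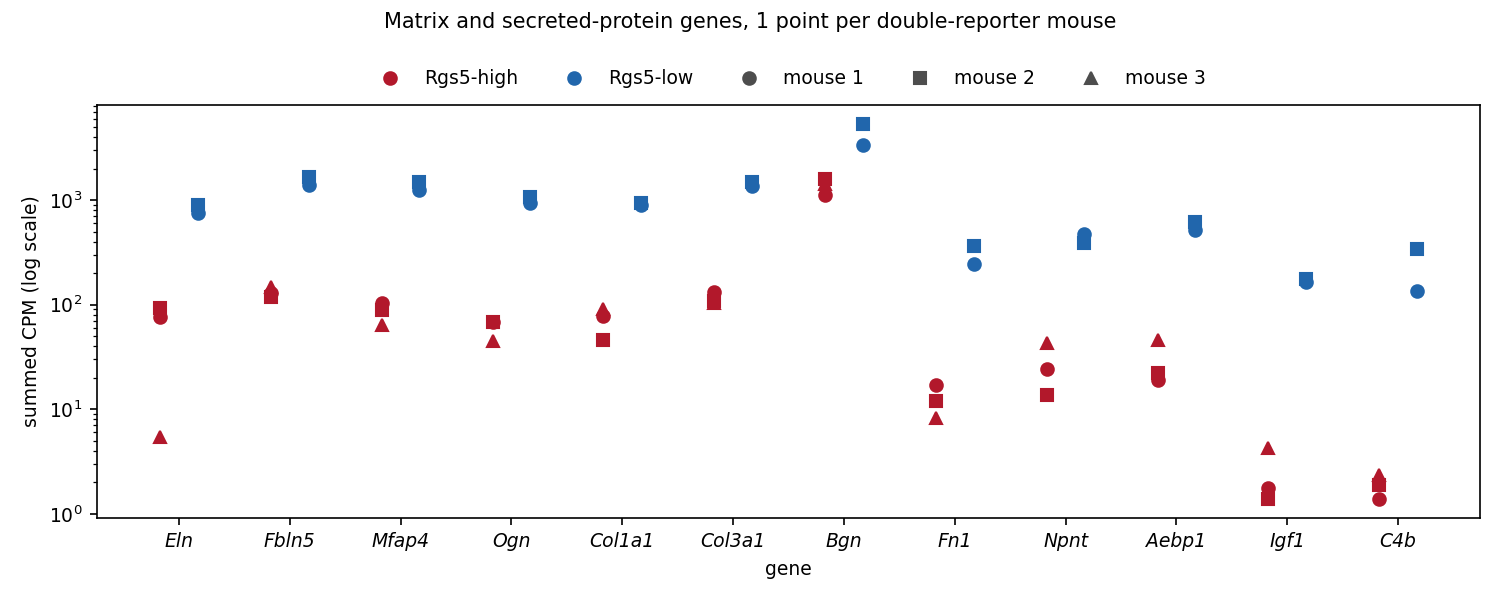
Summed CPM on a log axis of 12 matrix and secreted-protein genes in Rgs5-high (red) and Rgs5-low (blue) cells, with 1 point per double-reporter mouse. For every gene shown, each Rgs5-high value lies below both Rgs5-low values.

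Fibroblast markers moved with this result: as above, their sum was 2561 to 3715 CPM in members and 6467 to 7791 CPM in Rgs5-low cells, and 5 of the 10 are themselves in the collagen list. Dcn, the defining fibroblast proteoglycan, was 296, 76.4 and 632 CPM in Rgs5-high cells, against 1049 and 418 CPM in Rgs5-low cells. Leaving out every cell over 1000 CPM of Dcn gave a log2 change of -3.29 for Eln, -3.61 for Fbln5, -4.50 for Col1a1 and -3.45 for Col3a1, which are close to the values with those cells (-3.61 ± 0.21 for Fbln5, -3.94 ± 0.31 for Col1a1 and -3.56 ± 0.22 for Col3a1). Genes outside these 2 lists also had lower values in members. Igf1, a growth factor, was 1.76, 1.38 and 4.28 CPM in Rgs5-high cells, against 166 and 177 CPM in Rgs5-low cells. C4b, a complement component, was 1.40, 1.90 and 2.33 CPM in Rgs5-high cells, against 135 and 341 CPM in Rgs5-low cells. Nox4, an oxidase that makes hydrogen peroxide, was 28.01, 11.8 and 15.2 CPM in Rgs5-high cells, against 437 and 252 CPM in Rgs5-low cells, and Aebp1, a collagen-binding protein gene, was 19.0, 22.3 and 46.3 CPM in Rgs5-high cells, against 523 and 616 CPM in Rgs5-low cells. Some of these moved further without the Dcn cells, all staying negative. Igf1 had a log2 change of -5.38 without them and -6.73 ± 0.45 with them. C4b had -5.90 without them and -7.00 ± 0.45 with them. Nox4 had -5.45 without them and -4.18 ± 0.31 with them, and Fn1, which encodes fibronectin, -5.88 and -4.38 ± 0.42.

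Of 31 transcription factor genes tested, 5 were 2-fold higher in both mice (Mef2c, Tbx2, Tbx3, Foxs1 and Ebf2) and 4 were lower (Tbx5, Foxc2, Gata6 and Meis1). Mef2c, a factor of muscle development, was 695, 859 and 864 CPM in Rgs5-high cells, against 213 and 292 CPM in Rgs5-low cells and 368, 292 and 713 CPM in pericytes. Tbx2, a T-box repressor, was 279, 159.9 and 299.8 CPM in Rgs5-high cells, against 45.2 and 26.9 CPM in Rgs5-low cells and 84.6, 89.4 and 322 CPM in pericytes. Tbx3, a close relative of Tbx2, was 115, 203.28 and 196 CPM in Rgs5-high cells, against 15.7 and 36.9 CPM in Rgs5-low cells. The antisense gene Tbx3os1, which overlaps Tbx3 by 697 bases, was 124, 111 and 128 CPM in Rgs5-high cells, against 9.68 and 13.5 CPM in Rgs5-low cells, and reads in the overlap cannot be assigned to either. Myocd, the smooth muscle coactivator myocardin, was 616, 464 and 541 CPM in Rgs5-high cells, against 492 and 412 CPM in Rgs5-low cells, so members and Rgs5-low cells of the same mouse had similar values.

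In the energy and stress lists few genes passed the fold. None of 27 oxidative phosphorylation genes was 2-fold different in both mice, with a list median log2 change of 0.46. Atp5b, a subunit of ATP synthase, was 2510.3, 2706 and 3091 CPM in Rgs5-high cells, against 1444 and 1957 CPM in Rgs5-low cells. Of 26 immediate early genes, which respond within minutes to handling and to stimuli, 0 were 2-fold higher and 1 (Nr4a2) was lower. Fos, one of them, was 2506, 2394 and 4292 CPM in Rgs5-high cells, against 1556 and 2419.7 CPM in Rgs5-low cells, with a log2 change of 0.34 ± 0.23 (adjusted p = 0.693, edgeR). The mice overlapped between the classes for Fos. Of the reporter genes, Acta2 is described above and Cspg4 was 486, 720.3 and 765 CPM in Rgs5-high cells, against 323 and 499.97 CPM in Rgs5-low cells and 1242, 1087 and 862 CPM in pericytes. Pdgfrb, the receptor through which endothelial cells recruit mural cells, was 878, 1316 and 974 CPM in Rgs5-high cells, against 429.7 and 762 CPM in Rgs5-low cells and 3060.0, 4711 and 3675 CPM in pericytes. Both genes had their highest values in pericytes.

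Further lists differed in single genes. Of 41 growth factor signalling genes tested, 8 were 2-fold higher in both mice and 10 lower. Igfbp7, an insulin-like growth factor binding protein, was 1287, 827 and 1519.8 CPM in Rgs5-high cells, against 1766 and 1663 CPM in Rgs5-low cells. Of 9 caveolae genes, which form the membrane pits of smooth muscle, 0 were 2-fold higher and 1 lower. Cav1, the caveolar coat protein, was 1727, 1971 and 1179 CPM in Rgs5-high cells, against 1491 and 1640.4 CPM in Rgs5-low cells. Of 23 integrin and adhesion genes, 2 were higher and 6 lower. Mcam, an adhesion molecule of mural and endothelial cells, was 872, 838 and 735 CPM in Rgs5-high cells, against 602 and 702 CPM in Rgs5-low cells and 799, 539 and 1323 CPM in pericytes. Of 25 genes of glucose and fatty acid use, 2 were higher and 1 lower. Ckb, the brain-type creatine kinase, was 1189.8, 2014 and 1029 CPM in Rgs5-high cells, against 854 and 1452 CPM in Rgs5-low cells. Of 21 antigen presentation and inflammation genes, 3 were higher and 1 lower, with a median log2 change of 0.50. Ifitm3, an interferon-induced gene, was 483, 362 and 406 CPM in Rgs5-high cells, against 419 and 356 CPM in Rgs5-low cells.

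The members expressed 2 olfactory-type receptor genes at a level apart from the others. Of 1198 genes with an olfactory receptor symbol, 19 had any count in the 101 members and 2, Olfr558 and Olfr78, had 100 CPM or more over their summed counts. Each had a read in 93 of the 101 cells. Both belong to the few olfactory receptors known in blood vessels, where Olfr78 responds to short-chain fatty acids. Olfr558 was 1066, 1752 and 1092 CPM in Rgs5-high cells, against 214 and 661 CPM in Rgs5-low cells and 189, 218 and 403 CPM in pericytes. In single members Olfr558 ranged over 0, 1125 and 3502 CPM (lowest, median and highest) in mouse 1, against 0, 2.97 and 2341 CPM in Rgs5-low cells. After every cell was thinned to 50000 counts, a read of Olfr558 remained in 90.1% of members, 42.6% of Rgs5-low cells, 48.2% of pericytes and 6.33% of the remaining cells. Without thinning the shares were 92.1%, 76.5%, 70.6% and 19.2%. For Olfr78 the thinned shares were 88.1%, 36.5%, 9.41% and 4.98%, and the unthinned ones 92.1%, 55.7%, 28.2% and 15.2%. So pericytes carried Olfr558 reads more often than Olfr78 reads. The genes lie on chromosome 7, Olfr558 at chr7:102702215-102712064 on the plus strand and Olfr78 at chr7:102738511-102759471 on the minus strand, 26446 bases apart. Across members of mice 1, 2 and 3, the 2 genes had Spearman correlations of 0.33, 0.07 and 0.16 (50, 32 and 17 cells, with library depth shared by both values), which is weak.

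Set against all other cells of the same mouse, members could be tested in 3 mice, and 481 of 16754 genes outside the gate were called (2.87%), 158 higher (0.943%) and 323 lower (1.93%). All 481 changed in the same direction in the 3 mice. The median log2 change over all genes was -0.50. The mix of other cells differed between mice: 161, 147 and 308 of them in mice 1, 2 and 3 were neither Rgs5-low, nor Vtn-positive, nor pericytes as defined above. Leaving out cells over 1000 CPM of Dcn brought the calls to 118 (4 higher, 114 lower). Of the 31 genes tracked in this comparison 26 then missed the threshold, with 0 reversals, and Dgkg, Atp2a3, Fbln5, Col3a1 and C4b kept the call. Smooth muscle and calcium genes were among those that rose. Members were chosen by Myh11, and the other cells include many below that gate. A rise of smooth muscle genes in this comparison was therefore partly set by the gate. Against Rgs5-low cells, which passed the same Myh11 gate, 0 of 25 contractile genes were 2-fold higher in both mice. Of 25 contractile genes 4 rose (Des, Sorbs2, Tpm1 and Flna) and 0 fell, and of 17 calcium store genes 4 rose (Hrc, Atp2a3, Mrvi1 and Atp2a2) and 0 fell. Both lists vary with the settings: without mouse 1, 2 or 3 the contractile list had 13, 12 and 11 calls and the calcium store list 3, 3 and 2, and without cells over 1000 CPM of Dcn they had 0 and 1. Des, the intermediate filament desmin, was 1590.2, 1573 and 1197 CPM in Rgs5-high cells, against 348, 256 and 42.8 CPM in all other cells, a log2 change of 3.28 ± 0.59 (adjusted p = 0.0498, edgeR). That call was at the edge: it was lost at a Myh11 gate of 2000 CPM, at an Rgs5 gate of 500 CPM, with a depth filter (cells of at least 100000 counts and 2000 genes), without called doublets, without cells over 500 CPM of endothelial markers and without the Dcn cells. Atp2a2 was 882, 947 and 653 CPM in Rgs5-high cells, against 213, 207 and 90.7 CPM in all other cells, a log2 change of 2.48 ± 0.28 (adjusted p = 0.0200).

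Matrix genes fell in the same comparison. Of 28 collagen and proteoglycan genes tested, 17 fell and 0 rose, and of 19 elastic fibre genes 10 fell and 0 rose. Without cells over 1000 CPM of Dcn the counts were 5 and 2, and without mouse 1, 2 or 3 they were 21, 22 and 12 for the collagen list and 12, 11 and 7 for the elastic fibre list. Fibroblast markers moved with this result, with 8 of the 10 called lower in members, and their part in it was not tested. Col3a1 was 131.8, 109 and 103 CPM in Rgs5-high cells, against 1468, 2449 and 2156 CPM in all other cells, a log2 change of -4.00 ± 0.31 (adjusted p = 0.0166, edgeR). In the antigen presentation and inflammation list 4 of 27 tested genes fell (Icam1, Vcam1, H2-D1 and B2m) and 0 rose. B2m, the light chain of class I major histocompatibility molecules, was 412, 325 and 344 CPM in Rgs5-high cells, against 1051, 1096 and 1705 CPM in all other cells. Of 29 oxidative phosphorylation genes 6 rose (among them Sdhc, Cox8a, Uqcrfs1, Atp5b and Atp5a1) and 0 fell, but without mouse 1, 2 or 3 only 2, 2 and 1 were called and without cells over 1000 CPM of Dcn 0 were. Atp5b was 2510.3, 2706 and 3091 CPM in Rgs5-high cells, against 1254, 1004 and 970.3 CPM in all other cells. None of 26 immediate early genes was called. Other lists had few calls: 2 transcription factors rose (Tbx2 and Mef2c) and 2 fell (Tbx20 and Tcf21) of 32, 1 Notch gene rose (Nrarp) of 15, 1 ion channel rose (Kcna5) of 30, and 3 genes of glucose and fatty acid use rose (Slc2a4, Pfkm and Ckb) of 24. Of 43 vasoactive receptors 1 rose (S1pr3) and 4 fell (Ptgfr, Lpar1, S1pr2 and F2r). Of the genes given with values here, Hrc missed the threshold without any 1 of the 3 mice, Atp5b without mouse 1 or mouse 3, Synpo2l without mouse 2, and S1pr3, B2m and Mrvi1 without mouse 3. Kcna5 lost its call at Myh11 gates of 500 and 2000 CPM, and Nrarp at one of 500 CPM. Both lost it at an Rgs5 gate of 500 CPM, with the depth filter and without the Dcn cells.

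Among called genes with an average log2 CPM of at least 5, the 6 largest increases were in Kcnt1, Dgkg, Rasd2, Synpo2l, Relt and Ctnna3. Kcnt1, a sodium-activated potassium channel, was 86.2, 58.3 and 102 CPM in Rgs5-high cells, against 2.97, 1.15 and 0.259 CPM in all other cells, a log2 change of 6.36 ± 1.03 (adjusted p = 0.0398, edgeR). Its call was lost at a Myh11 gate of 500 CPM, at an Rgs5 gate of 2000 CPM, with the depth filter, without cells over 500 CPM of endothelial markers and without the Dcn cells. Dgkg, a kinase that removes diacylglycerol, was 164, 193 and 210.3 CPM in Rgs5-high cells, against 4.38, 7.39 and 2.10 CPM in all other cells, a log2 change of 5.63 ± 0.57 (adjusted p = 0.0176). Rasd2, a small GTPase related to Ras, was 92.6, 72.8 and 62.2 CPM in Rgs5-high cells, against 3.83, 3.24 and 0.683 CPM in all other cells. Synpo2l, an actin-associated protein gene, was 64.5, 123 and 17.1 CPM in Rgs5-high cells, against 1.65, 4.80 and 0.642 CPM in all other cells. Relt, a receptor of the tumour necrosis factor family, was 83.8, 71.9 and 80.5 CPM in Rgs5-high cells, against 4.74, 1.96 and 2.17 CPM in all other cells. Ctnna3, an alpha catenin of heart muscle junctions, was 173, 184 and 158 CPM in Rgs5-high cells, against 17.2, 6.02 and 2.20 CPM in all other cells. Each was also lower in the other mural classes of mice 1 and 2. Dgkg, for example, had 14.3 and 47.3 CPM in Rgs5-low cells, 3.27 and 0 CPM in Vtn-positive cells and 0.224, 0.559 and 0 CPM in pericytes. Synpo2l, Relt and Ctnna3 lost their calls at a Myh11 gate of 500 CPM, Rasd2 at one of 2000 CPM, and Synpo2l with the depth filter. Without the Dcn cells Rasd2, Synpo2l, Relt and Ctnna3 all missed the threshold. Among the 6 genes only Dgkg kept its call in every setting tried.

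Of the 158 genes that rose against all other cells, 78 were at least 2-fold over Rgs5-low cells in both mice, 77 over Vtn-positive Myh11 cells and 114 over pericytes in the same mice, and 32 met all 3 conditions. When the pericytes of mouse 3 had to meet the fold as well, 89 genes were over pericytes and 24 met all conditions. The 8 that then dropped out were Amph, Atp2a3, Hrc, Kitl, Plxnb1, Rasd2, Suco and Tcim. Over all genes tested, 5.61% were 2-fold over Rgs5-low cells and 11.9% over Vtn-positive cells in both mice. No such share was taken for pericytes or for all 3 conditions together, so those counts have none to be set against. All these counts describe where the values of called genes lay and carry no test of their own, since the 3 classes are part of the other cells. The 32 include the 6 genes above, the channel gene Kcna5, the pump gene Atp2a3, Hrc, Gpr20, Olfr558 and Dgkb, a second diacylglycerol kinase gene. Tesc, which encodes a calcium-binding regulator of sodium-proton exchange, was 312, 405 and 311 CPM in Rgs5-high cells, against 94.0 and 89.7 CPM in Rgs5-low cells and 4.76, 0.559 and 4.82 CPM in pericytes. Kitl, the ligand of the receptor Kit, was 234, 311 and 180.4 CPM in Rgs5-high cells, against 27.7 and 77.7 CPM in Rgs5-low cells and 26.2, 36.9 and 279.8 CPM in pericytes, and its pericyte value in mouse 3 exceeded that of members. Dgkb was 276, 303 and 229 CPM in Rgs5-high cells, against 95.3 and 40.8 CPM in Rgs5-low cells and 27.6, 9.50 and 8.04 CPM in pericytes. Ptp4a3, a phosphatase gene, was 1449, 1454 and 1932 CPM in Rgs5-high cells, against 487 and 722 CPM in Rgs5-low cells and 362, 315 and 569 CPM in pericytes. Without the Dcn cells Kcna5, Hrc, Gpr20, Olfr558, Dgkb, Tesc and Kitl lost their calls against all other cells. Olfr558, Hrc and Tesc also lost them with the depth filter, and Hrc and Tesc at an Rgs5 gate of 500 CPM. Gpr20 and Tesc did so without cells over 500 CPM of endothelial markers, and Kitl at a Myh11 gate of 500 CPM.

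The promoters of Kcna5 and Dgkg, both among these 32 genes, are printed here (RefSeq, GRCm38.p6, 250 bases before to 50 after the start, in the direction of the gene), because both windows hold the letters GTGGGAA, the core bound by RBPJ, through which Notch receptors act. Capitals mark the match, which lies on the opposite strand in both. The window of Kcna5 is chr6:126535506-126535805 (minus strand) and that of Dgkg is chr16:22657182-22657481 (minus strand).
Kcna5: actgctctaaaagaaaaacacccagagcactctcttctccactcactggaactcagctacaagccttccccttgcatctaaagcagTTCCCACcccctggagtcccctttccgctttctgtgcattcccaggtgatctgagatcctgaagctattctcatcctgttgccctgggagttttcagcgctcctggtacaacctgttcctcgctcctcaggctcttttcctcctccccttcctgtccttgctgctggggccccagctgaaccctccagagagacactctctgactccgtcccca
Dgkg: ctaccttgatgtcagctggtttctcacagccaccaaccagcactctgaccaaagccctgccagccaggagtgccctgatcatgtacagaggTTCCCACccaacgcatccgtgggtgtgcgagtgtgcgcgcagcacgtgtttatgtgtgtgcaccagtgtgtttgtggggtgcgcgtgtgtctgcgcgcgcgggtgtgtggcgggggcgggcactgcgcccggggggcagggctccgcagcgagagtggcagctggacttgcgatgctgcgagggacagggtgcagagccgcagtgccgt
These letters, searched on both strands, occurred in 4 of the 31 windows of the 24 genes among the 32 that matched a RefSeq entry (those of Kcna5, Hrc, Dgkg and Lclat1). They occurred in 6.38% of all 32851 windows. The T-box letters AGGTGTGA occurred in 0 of the 31 and in 1.28% of all windows. A match is a description of the sequence and no measured site.

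Vtn-positive Myh11 cells passed the same Myh11 and Rgs5 gates as members, so this comparison asked what went with Vtn. Over 12304 genes outside the gate in mice 1 and 2, edgeR called 2 lower in members and 0 higher (0.0163% of genes). At an unadjusted p under 0.05, 1168 genes differed, and DESeq2 called 828 (378 higher, 450 lower). Gpx3, a secreted glutathione peroxidase, fell to 19.8 and 26.8 CPM in Rgs5-high cells, against 2132 and 2962 CPM in Vtn-positive cells, a log2 change of -6.77 ± 0.25 (adjusted p = 0.0357, edgeR). Podn, which encodes the matrix protein podocan, fell to 0.515 and 0.346 CPM, against 563 and 474 CPM in Vtn-positive cells (log2 change -10.17 ± 0.46, adjusted p = 0.0357). At an Rgs5 gate of 500 CPM neither was called. Podn also missed the threshold at a Myh11 gate of 2000 CPM and with the depth filter, and Gpx3 without cells over 1000 CPM of Dcn. In Rgs5-low cells Gpx3 was at 589.6 and 193 CPM and Podn at 55.0 and 7.95 CPM.

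By fold alone, 11.9% of genes were at least 2-fold higher and 8.5% at least 2-fold lower in members than in Vtn-positive cells of both mice. In the collagen and proteoglycan list 13 of 23 tested genes were lower and 0 higher. Col3a1 was 131.8 and 109 CPM in Rgs5-high cells, against 1306 and 2133 CPM in Vtn-positive cells. In the antigen presentation and inflammation list 13 of 23 were lower and 0 higher, among them Vcam1, a leukocyte adhesion molecule, at 1.25 and 2.59 CPM in Rgs5-high cells, against 199.6 and 264 CPM in Vtn-positive cells. In the other direction, 4 of 13 calcium store genes (Atp2a2, Atp2a3, Orai1 and Hrc) were higher and 0 lower. The contractile list, with 4 of 25 higher (Mylk, Smtn, Ldb3 and Sorbs2) and 0 lower, was near the 11.9% of all genes. Mylk, the myosin light chain kinase gene, was 2818 and 3247 CPM in Rgs5-high cells, against 1398 and 1135 CPM in Vtn-positive cells. Sorbs2, which encodes a protein that links actin to adhesions, was 2043 and 2044 CPM in Rgs5-high cells, against 248 and 226 CPM in Vtn-positive cells. Notch3 was close in the 2 classes, at 919 and 1115 CPM in Rgs5-high cells and 904 and 1333 CPM in Vtn-positive cells.

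The members were not uniform. Among genes with a mean of at least 100 CPM and 20% to 80% of members at 100 CPM or more in each of mice 1, 2 and 3 (988 genes), the 12 with the widest spread between cells were Ppp1r15a, Btg2, Rasd1, Cnn1, Nr4a1, Itpk1, Ephx3, Trp53i11, S1pr3, Olfml2a, Junb and Adamts1. The filter itself keeps genes that only a part of the members carry, so the spread is not shown to be particular to members. Several are induced by stress or stimuli, among them Ppp1r15a, Btg2, Nr4a1 and Junb. Nr4a1, an immediate early nuclear receptor, reached 100 CPM in 24 of 50, 18 of 32 and 9 of 17 members of mice 1, 2 and 3. Its lowest, median and highest values were 0, 45.4 and 6923 CPM in mouse 1 and 13.5, 401 and 14091 CPM in mouse 3. In Rgs5-low cells of mouse 1 Nr4a1 ranged from 0 to 8699 CPM. Cnn1 reached 100 CPM in 29 of 50, 18 of 32 and 6 of 17 members, and S1pr3 in 36 of 50, 23 of 32 and 7 of 17. In mouse 3, 6 and 7 of the 17 members carried Cnn1 and S1pr3 at that level, the lowest share of the 3 mice.

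Within members the level of Rgs5 ran with other genes, described here as Spearman correlations across the 50, 32 and 17 members of mice 1, 2 and 3, whose points share library depth and the composition that CPM imposes. Rgs5 and Notch3 had 0.44, 0.42 and 0.53, and Rgs5 and Casq2 had 0.40, 0.50 and 0.27. Rgs5 and Cnn1 had -0.55, -0.68 and -0.41, and Rgs5 and Actg2 had -0.40, -0.39 and -0.40. So the members with the most Rgs5 tended to have more Notch3 and less Cnn1 in each of the mice. At a split of 5000 CPM chosen after the values were seen, Cnn1 reached 100 CPM in 9 of 25, 6 of 20 and 2 of 10 members with 5000 CPM of Rgs5 or more in mice 1, 2 and 3, against 20 of 25, 12 of 12 and 4 of 7 members below that. Actg2 did so in 1 of 25, 2 of 20 and 1 of 10 members with 5000 CPM of Rgs5 or more in mice 1, 2 and 3, against 10 of 25, 7 of 12 and 4 of 7 members below that. The same split gave smaller differences for Notch3 and Casq2. Notch3 reached 100 CPM in 22 of 25, 19 of 20 and 10 of 10 members, against 17 of 25, 10 of 12 and 6 of 7 below it. Casq2 did so in 22 of 25, 18 of 20 and 9 of 10, against 19 of 25, 10 of 12 and 5 of 7. Rgs5 and Pln had -0.19, -0.38 and -0.19, so Pln, unlike Casq2, was not highest in the members with the most Rgs5.

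**Figure D5:**
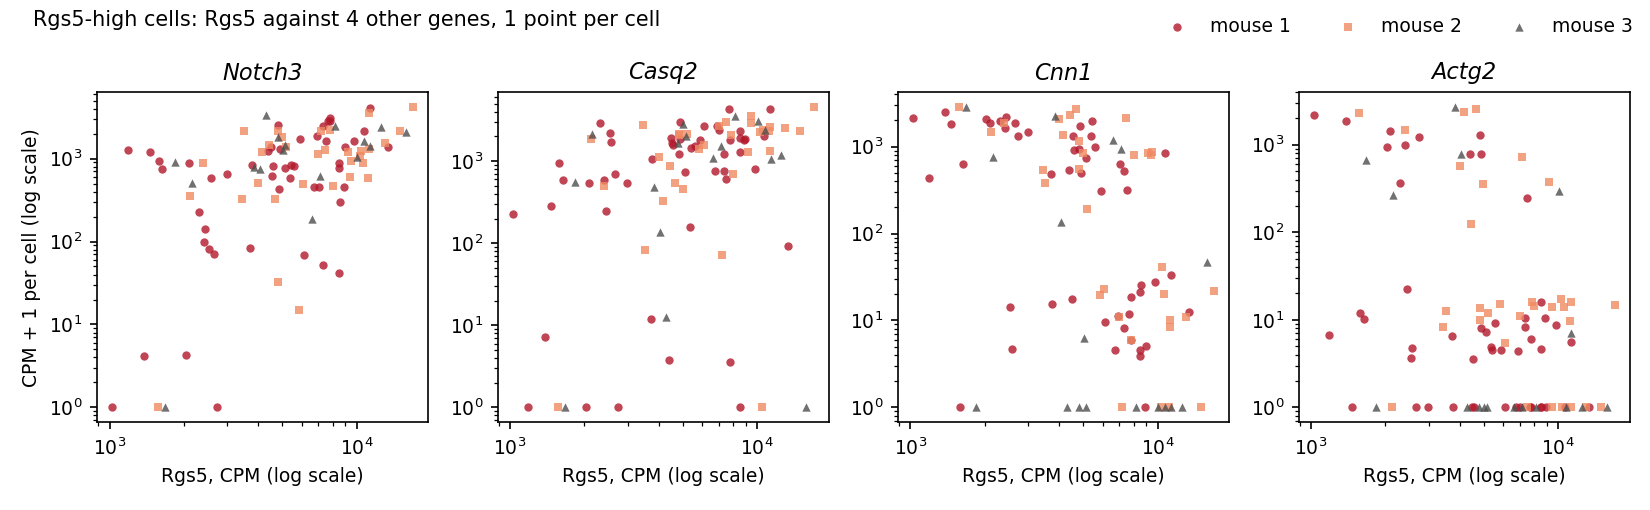
Rgs5 (x axis, CPM, log scale) against Notch3, Casq2, Cnn1 and Actg2 (y axis, CPM + 1, log scale) in Rgs5-high cells, with 1 point per cell and a marker for each double-reporter mouse. Notch3 and Casq2 lie higher, and Cnn1 and Actg2 more often near 0, towards the right.

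The 2 members of C57BL/6 mouse 1 had Rgs5 values of 4593 and 8556 CPM and Casq2 values of 868 and 1205 CPM, within the range of members of the double-reporter mice. Their Nrip2 values were 1262 and 2115 CPM. Olfr78 was at 1215 CPM in one and 0 in the other. With so few cells no comparison between the strains was made.

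Members of mouse 3, the animal labelled female, entered only the comparison with all other cells, because just 1 Rgs5-low and 2 Vtn-positive cells came from it. Their summed values lay within or near the range of mice 1 and 2 for Notch3, Acta2, Mef2c and Atp2a3. They stood apart for Eln, at 5.44 CPM in mouse 3 and 75.8 and 92.8 CPM in mice 1 and 2, and for Olfr78, at 1733 CPM in mouse 3. With 1 such animal, sex, mouse and plate cannot be told apart.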

How the data were processed

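The deposited table held raw counts per gene and cell, with 46517 genes and 1307 cells. Per the submitters' processing notes, the authors used bcl2fastq, Bowtie, Bowtie2, Subread and featureCounts with GRCm38 (mm10). Their versions, parameters and strand setting are not given in the sources used here. Cells had 50476 to 811982 counts, with a median of 274702. No cell was filtered out, and no pair of cells had identical values.

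Cells were classed by CPM. The raw counts of each class were added up within a mouse, for mice with at least 4 cells in both classes, and tested with edgeR 4.0.16 (quasi-likelihood, TMM scaling, filterByExpr, Benjamini-Hochberg at 0.05 over all genes) with the mouse as a block, since both sums came from the same animal. Deviations of the paired sums from their class means correlated at 0.110 against Rgs5-low cells, 0.0635 against Vtn-positive cells and 0.114 to 0.164 against all other cells. DESeq2 1.42.0, limma 3.58.1 and other gates and filters were alternatives. Doublets were sought with Scrublet in scanpy 1.11.5, which called 7 cells, 0 of them Rgs5-high and 1 Rgs5-low. It marked too few to count as a working filter, so no cell was removed for it in the results given first. Intervals are exact (Clopper-Pearson). Reads without molecular identifiers are not independent molecules, so counting intervals cover counting error only. The scripts were tested on simulated counts.

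The members and gene lists were chosen with earlier results of these data known. Genes to name were, against Rgs5-low cells, the 10 largest called changes each way, against Vtn-positive cells and all others the 6 largest, and from each list 2 called genes or, failing these, the 2 with the most counts. Further named genes, including most of those against Rgs5-low cells, were chosen after their values were seen. Mice are the replicates. The labels say nothing of separate preparations within a mouse. Some members counted in the gene lists are not reported here by name.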

Additional observations from a re-analysis of the deposited data

How the results depend on the processing

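The edgeR count of 0 against Rgs5-low cells stayed at 0 under the other gates, scalings and cell filters. It became 1112 with DESeq2, 124 with limma on means of cells, 112 with no filter on low counts, 21 with no replicate block and 35 with all 5 sums, a fit that also has no block. The 2 calls against Vtn-positive cells became 828 with DESeq2, 47 with limma, 24 with no filter, 9 with no replicate block, 24 with all sums and no block, 39 without cells over 500 CPM of endothelial markers, 10 and 0 at Rgs5 gates of 2000 and 500 CPM, 1 at a Myh11 gate of 2000 CPM and 1 with cells of at least 100000 counts and 2000 genes. The 481 calls against all other cells became 3412 with DESeq2, 2485 with limma, 1933 with no replicate block, 306 at an Rgs5 gate of 500 CPM, 284 with the depth filter and 118 without cells over 1000 CPM of Dcn, of which 78 were shared with the 481. The share of calls that were higher was 32.8%, and became 3.39% without the Dcn cells, 18.9% with limma and 20.7% with no replicate block. Leaving out 1 mouse gave 331 to 537 calls. In the comparisons of 2 mice, leaving out a mouse left no residual degrees of freedom, so values without a count were taken. Gate changes gave 91 to 112 members.

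Against Rgs5-low cells, Acta2 turned to log2 changes of -0.067 at a Myh11 gate of 2000 CPM, -0.014 at an Rgs5 gate of 500 CPM, -0.034 with limma, and -0.021 without Dcn cells, and ranged from -0.067 to 0.160 when mouse 1 or 2 was left out. Fos ranged from -0.044 to 0.746 in the same way. Of 855 values of the 45 genes whose change against Rgs5-low cells was tracked, these 6 reversed. Of 558 values of 31 genes against all other cells, 70 lost the call and 0 reversed. The cause of these shifts was not tested. The all-sums fit, the Dcn filter and the list counts were added after the data were seen. Against Rgs5-low and Vtn-positive cells there were 2 mice, which limits what the tests could call.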
